A study of Mus musculus with 2 samples.

Results

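DNase I hypersensitive sites (DHS), short stretches of open chromatin, were examined at the 8 genes whose products write, copy, oxidise and read DNA methylation in the mouse: Dnmt1, Uhrf1, Dnmt3a, Dnmt3b, Tet1, Tet2, Tet3 and Mbd2. They are 8 of the 22350 protein-coding genes that GENCODE release M1 places on chromosomes 1 to 19 and X, and they were chosen by name for their function. Each gene was taken with its whole body and 50 kb on either side. Of the 47542 DHS of the library, 89 overlapped these windows by at least 1 bp.

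The cells were splenic B cells from C57/Bl6 mice of genotype Trp53+/+, 8 weeks old, which were mock treated and thus not irradiated. They had been selected with magnetic beads for B220, a surface marker of B cells. The series holds 1 DNaseI library, which gave the peak list used here, and 1 input library. A single library has no replicates, so no test was possible and all ranks and shares below are descriptions. The 95% intervals given are exact and cover counting error only. The list has no read counts and the depth is unknown, so a promoter without a DHS is one at which none was called. Each DHS carries a score assigned by the peak caller. Its scale is not stated, and it was used only to rank DHS within the list, in which the median was 32.6 and the quartiles were 17.9 and 69.9.

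The label of the cells was checked at the promoters of marker genes, where a DHS within 1 kb of any transcription start site (TSS) was counted. Over all protein-coding genes this share was 53.7%. All 10 B cell markers had such a DHS, among them Pax5, Ebf1, Ms4a1 and Cd79a. Of 8 T cell markers, Lat had one with a score of 24.5, while Cd3d, Cd3e, Cd3g, Cd4, Cd8a, Cd8b1 and Cd28 had none. Of 7 myeloid markers, Itgam (18.2) and Cd14 (51.0) had one, and Csf1r, Lyz2, Mpo, Elane and Csf3r had none. Of 6 erythroid markers, 2 had one, among them Klf1 (178), and Gata1, Epor, Alas2 and Hbb-b1 had none. Whether other cells contributed to the DHS described below was not tested.

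DNA methylation in mammals sits mainly on cytosines that are followed by guanine (CpG). Dnmt3a and Dnmt3b place it on unmethylated DNA, and Dnmt1 copies it to the new strand after replication, guided there by Uhrf1, which binds hemimethylated CpG. The Tet proteins oxidise the methyl group on the way to its removal, and Mbd2 binds methylated CpG and recruits the NuRD complex. Dnmt3a and Tet2 are known in the blood lineage as genes whose loss favours clonal growth, and DNA methylation is remodelled when B cells are activated.

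All 8 genes had a DHS within 1 kb of a TSS, against 53.7% of all protein-coding genes, and in all 8 a DHS covered at least 1 TSS, against 46.6%. For Tet1 the TSS concerned belonged to a noncoding transcript, and with protein-coding transcripts alone the count was 7 of 8, against 53% of all protein-coding genes. The 89 DHS amounted to 6.72 per 100 kb over the 8 windows together (95% interval 5.39 to 8.27). For single protein-coding genes with the same windows the median was 3.38 (quartiles 0.662 and 6.91), which is not a pooled value. Taken singly, 7 of the 8 genes were above that median, and their median percentile was 76.6. By place, 15 DHS lay within 1 kb of a TSS of the 8 genes, some of them centred on a first exon, and 8 others lay in their introns. Away from the TSSs, none was centred on one of their exons. A further 24 lay at promoters of other genes, 16 in the bodies of other genes and 26 between genes. The strongest DHS in the windows of Dnmt1, Uhrf1, Dnmt3b, Tet1, Tet3 and Mbd2 lay at the promoter of another gene. In the Tet2 window it lay between genes, and only in the Dnmt3a window was it at a promoter of the gene itself. Places were not counted in the windows of other protein-coding genes, so these counts have no share to set beside them.

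**Figure D1:**
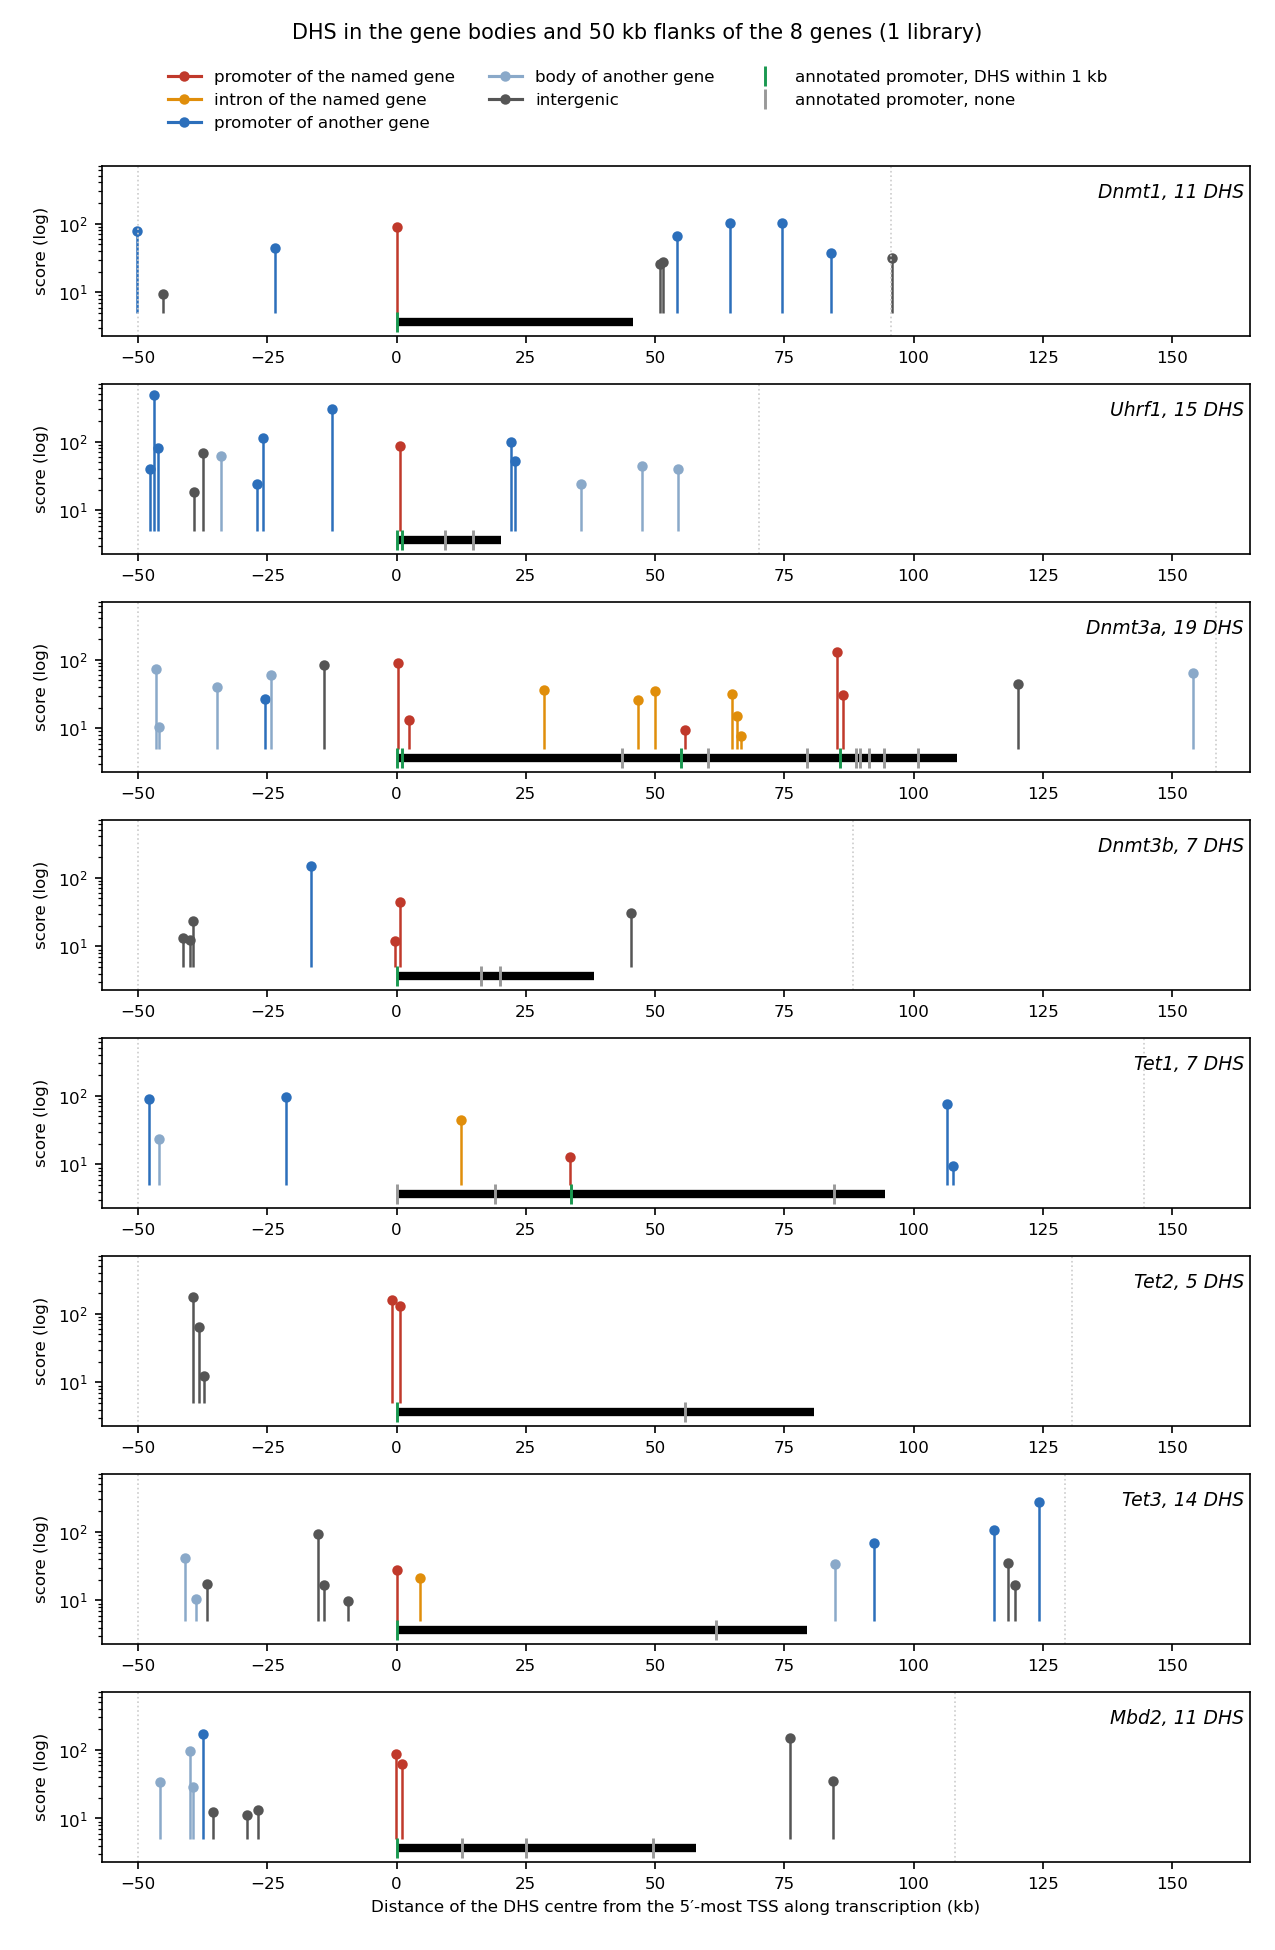
Each panel shows 1 gene: the x axis is the distance in kb of each DHS centre from the 5′-most TSS, counted along transcription, and the y axis is the score on a log scale. The black bar is the gene body, ticks on it are annotated promoters, dotted lines are the ends of the window and colours give the place of each DHS. Dnmt3a has 6 DHS in introns away from its promoters, whereas the bodies of Dnmt1, Uhrf1, Dnmt3b, Tet2 and Mbd2 have none away from a promoter.

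To treat alternative promoters on their own, annotated TSSs of a gene at most 500 bp apart were joined into 1 promoter and numbered from the 5′ end. The 8 genes had 32 such promoters, of which 12 had a DHS within 1 kb (37.5%, 95% interval 21.1 to 56.3), close to the 36.5% of all promoters of protein-coding genes. The 5′-most promoter had a DHS in 7 of 8 genes, and in 6 of the 7 genes with 2 or more promoters, against 65.1% over all such genes. The promoters further downstream had one in 5 of 24 cases (20.8%), against 20.2% over all such promoters. All 5 CpG-rich promoters had a DHS, against 82.6% of all CpG-rich promoters, where CpG-rich means that the 1 kb around the TSS reached 55% GC and an observed/expected CpG ratio of 0.6. Of the 27 others, 7 had one (25.9%), against 22.2%. Promoters without a transcript annotated as protein coding had a DHS in 1 of 11 cases (9.09%, 95% interval 0.230 to 41.3), which was promoter 3 of Tet1, against 14.7% of all such promoters.

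**Figure D2:**
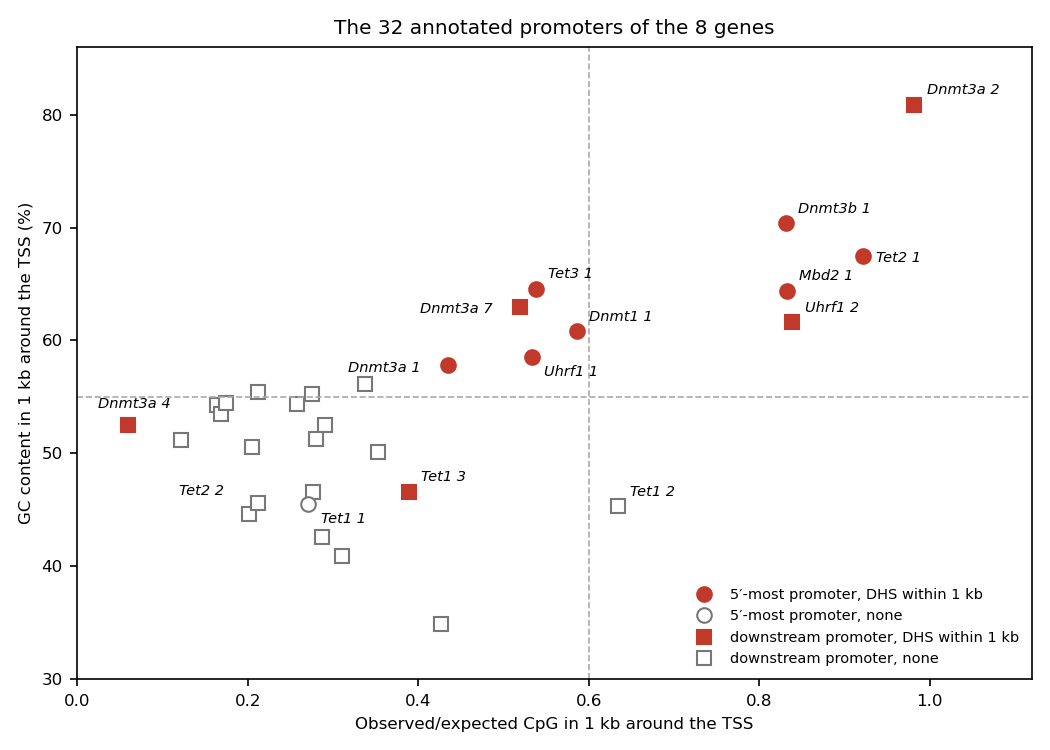
Each point is 1 of the 32 annotated promoters, placed by the observed/expected CpG ratio (x axis) and the GC content in percent (y axis) of the 1 kb around its TSS. Circles are 5′-most promoters, squares are downstream promoters, filled symbols have a DHS within 1 kb and dashed lines are the limits for CpG-rich. The 5 promoters past both limits are filled, and the filled promoters reach down to a GC content of 46.6%.

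The promoters without a DHS had GC contents of 34.9 to 56.1%, and those with a DHS had 46.6 to 80.9%, so that the ranges overlapped. The promoters with a DHS in the overlap were promoter 4 of Dnmt3a and promoter 3 of Tet1, whose DHS scored 9.61 and 12.9, within the lowest 11.8% of the list.

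The maintenance methyltransferase gene Dnmt1 lies at chr9:20711650-20757317 on the minus strand and has 1 annotated transcript. Its promoter carried a single DHS of 1453 bp at chr9:20756591-20758043 with a score of 88.2, which was centred on the TSS. No other DHS lay in its 45.7 kb body. The 4 intergenic DHS of its window had scores of 9.60 to 31.9, all below the median of the list. RefSeq starts, matched to mm9 by exact sequence, gave 2 further starts inside the same DHS, and 1 start 7015 bp upstream at position 20764332 that had no DHS within 1 kb. That upstream start had an observed/expected CpG ratio of 0.0588, and its nearest DHS was 6289 bp away. The sequence just upstream of the annotated TSS, chr9:20757318-20757467 on the minus strand, is shown because it holds words for NRF1, a factor of housekeeping promoters, next to the TSS (capitals mark searched words, here overlapping copies of GCATGCGC on both strands).
Dnmt1 promoter DHS: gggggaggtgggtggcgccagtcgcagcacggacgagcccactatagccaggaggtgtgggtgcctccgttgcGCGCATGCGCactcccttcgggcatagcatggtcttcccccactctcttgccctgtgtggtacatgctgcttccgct
The whole DHS held 3 separate stretches of NRF1 words and 3 of the E2F word TTTNNCGC, the element of factors that drive genes of DNA replication. Among all DHS, 0.0169% held as many NRF1 stretches and 0.308% as many E2F stretches. Among the 7907 DHS at least as wide these shares were 0.0506% and 1.52%, and among DHS at promoters 0.0375% and 0.780%. The words compared in this way, here and below, were picked after word counts had been seen, so such shares are descriptions of selected cases and not tests.

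Uhrf1, at chr17:56442744-56462909 on the plus strand, has 4 annotated promoters. Its promoters 1 and 2, 0.992 kb apart and both with a coding length of 782 codons, were covered by the same DHS of 2231 bp at chr17:56442330-56444560 (score 87.1). Promoters 3 and 4, which give noncoding transcripts 9.34 and 14.7 kb downstream, had none, and no DHS lay elsewhere in the gene. The score was close to that of Dnmt1 (88.2), at the 40.7 and 41.3 percentile of the highest promoter scores of the 11991 genes with a promoter DHS. The centre of the DHS, chr17:56443296-56443595, between both promoters, is shown for its 3 E2F words and its NRF1 word in capitals.
Uhrf1 promoter DHS: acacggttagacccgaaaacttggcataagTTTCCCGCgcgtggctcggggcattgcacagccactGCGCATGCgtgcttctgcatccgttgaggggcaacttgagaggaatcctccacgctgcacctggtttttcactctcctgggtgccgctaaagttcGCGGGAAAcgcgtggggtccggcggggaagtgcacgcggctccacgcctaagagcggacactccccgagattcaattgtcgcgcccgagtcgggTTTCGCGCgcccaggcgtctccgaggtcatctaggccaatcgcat
Over its full width the DHS held 6 separate E2F stretches, a number reached by 4 of all DHS, by 0.0187% of those at promoters and by 0.162% of the 1855 DHS at least as wide. It also held 2 copies of the NF-Y word CCAATCAG, as did 0.263% of all DHS, 0.618% of those at promoters and 1.4% of those at least as wide. Of the 23 DHS at promoters or in introns of the 8 genes, 4 held an E2F word (17.4%), against 11.8% of all DHS, and the other two were 1 intron DHS of Dnmt3a and 1 promoter DHS of Tet2, with 1 word each.

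The de novo methyltransferase gene Dnmt3a (chr12:3806007-3914443, plus strand) had the most DHS of the 8 windows, with 19, and the most annotated promoters, with 12. Promoters 1, 2, 4 and 7 had a DHS within 1 kb, and promoters 3, 5, 6 and 8 to 12 had none. The strongest DHS of the window was not at the 5′ end of the gene. It lay 85.2 kb downstream of the first TSS at chr12:3890740-3891653, with a score of 128, next to promoter 7, from which transcripts with a coding length of 689 codons start. These encode the short isoform known as Dnmt3a2, which lacks the N-terminal part of the protein. A second DHS of score 31.1 followed on the other side of the TSSs at chr12:3891833-3892739, so that both TSSs of promoter 7 fell in the gap of 179 bp between them. The bases before the RefSeq start of this promoter, chr12:3891494-3891743, are shown because they run from the 3′ end of the strong DHS into the gap before the start of the short isoform. The capitals mark a GC box GGGCGGG inside the DHS and an E-box CACGTG inside the gap.
Dnmt3a promoter 7: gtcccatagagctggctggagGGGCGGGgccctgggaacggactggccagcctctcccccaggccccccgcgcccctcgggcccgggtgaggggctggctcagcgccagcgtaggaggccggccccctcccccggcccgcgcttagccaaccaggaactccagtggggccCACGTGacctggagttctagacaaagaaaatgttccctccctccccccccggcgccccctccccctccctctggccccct

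At the 5′ end of Dnmt3a, promoter 1 was covered by a DHS of score 90.8 at chr12:3805809-3806724, and a weak DHS of score 13.3 lay at chr12:3808094-3808602. Promoter 2, from which the full-length coding sequence of 908 codons starts, lay in the gap of 1369 bp between them, where no DHS was called. This gap had a GC content of 81.4% and 210 CpGs, and promoter 2 had the highest GC content of the 32 promoters (80.9%). None of the words of 31 bases in the gap had another place in mm9. Promoter 4, 55014 bp downstream, was within 1 kb of a weak DHS (9.61), which did not cover its TSS.

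Dnmt3a also had 6 DHS inside its introns away from any of its TSSs, with scores from 7.86 to 36.8. The strongest of these, 28.6 kb from the first TSS at chr12:3833509-3835644, was 2136 bp wide, and 3 others formed a cluster of 2.25 kb at 65.0 to 66.6 kb. Their observed/expected CpG ratios were 0.122 to 0.395. The DHS at promoters 1, 2 and 7 had 0.368 to 0.587 and that at promoter 4 had 0.152, so that the ranges overlapped. Among the 3883 protein-coding genes of 50 to 200 kb, 10.6% had as many DHS in the body away from TSSs, and the median of these genes was 1. Tet1 and Tet3, of like length, had 1 each, and Tet2 and Mbd2 had 0. The DHS counted for Tet1 covers its RefSeq start, which is not among the GENCODE TSSs used for this count. Outside the gene and between genes, a DHS of score 83.9 lay 14.1 kb upstream of Dnmt3a at chr12:3791383-3792423, and one of score 44.9 lay past its 3′ end, 120 kb from the first TSS.

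Dnmt3b, at chr2:153475186-153513466 on the plus strand, had fewer DHS in its window than Dnmt3a and a lower median score (23.1, against 35.1). The strongest DHS of the Dnmt3b window, at the promoter of Commd7, nevertheless scored 148, above the 128 of Dnmt3a. Its window held 7, and 2 of them reached the median score of the list. Promoter 1, at which all 10 coding transcripts start, lay between a DHS of score 11.8 (chr2:153474620-153474980) and one of score 43.9 (chr2:153475282-153476490). Of its 10 TSSs, 9 fell in the gap of 301 bp between them, and 1 was covered by the stronger DHS. Promoters 2 and 3, noncoding and 16.4 and 19.9 kb downstream, had none, and the rest of the body had no DHS. Of the intergenic DHS in its window, 3 lay 39.4 to 41.3 kb upstream with scores of 12.2 to 23.1, and 1 of score 30.4 lay 45.4 kb downstream of the TSS. The highest promoter score stood at the 17.1 percentile of genes with a promoter DHS, against 65.2 for Dnmt3a. The bases before the RefSeq start, chr2:153474935-153475184, are given because most of them lie in the GC-rich gap in which no DHS was called, while the earliest lie in the weak upstream DHS, with overlapping GC boxes and an EBF word (CCCNNGGGA) in capitals.
Dnmt3b promoter 1: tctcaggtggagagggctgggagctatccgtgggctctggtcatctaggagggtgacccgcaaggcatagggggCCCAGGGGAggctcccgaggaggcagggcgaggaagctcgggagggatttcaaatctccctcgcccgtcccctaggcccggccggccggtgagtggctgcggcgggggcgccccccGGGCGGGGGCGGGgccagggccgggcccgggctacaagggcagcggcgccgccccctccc

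Among the genes for methylcytosine oxidation, the promoter DHS covered the whole range seen over the 8 genes. Tet2 had the highest promoter score of the 8 genes (158, the 77.4 percentile), while Tet3 (27.8, the 9.59 percentile) and Tet1 (12.9, the 2.16 percentile) had the lowest. The place of Tet1 rests on the GENCODE starts, since the DHS at its RefSeq start scored 44.6, above Tet3 and Dnmt3b (43.9). Over all 11991 genes with a promoter DHS the median was 102, and of the 8 genes Dnmt3a and Tet2 were above it and the other 6 below.

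Tet1, at chr10:62267318-62361866 on the minus strand, had no DHS within 1 kb of the promoters that GENCODE gives for its longest coding sequence of 2039 codons. The nearest DHS to promoter 1 was 11398 bp away, and the nearest to promoter 2, 19.1 kb downstream, was 5723 bp away. Promoter 4, of short coding models 84.6 kb downstream, had none either. Promoter 3, of a noncoding transcript, was covered by a weak DHS of score 12.9. The strongest DHS within the gene lay in the first intron at chr10:62348485-62350468, with a score of 44.6 and a width of 1984 bp. It was CpG-rich, with a GC content of 57.0% and an observed/expected CpG ratio of 0.671. The RefSeq start of Tet1, matched to mm9 at position 62350072, lay inside this DHS, 11.8 kb downstream of promoter 1 and 7310 bp from the nearest GENCODE TSS. Counted from the RefSeq start, Tet1 thus had a promoter DHS of score 44.6, and counted from GENCODE it had only the weak one of promoter 3. The bases before that start, chr10:62350073-62350322 on the minus strand, are shown as the promoter that GENCODE M1 does not contain, and no searched word occurred in them.
Tet1 RefSeq promoter: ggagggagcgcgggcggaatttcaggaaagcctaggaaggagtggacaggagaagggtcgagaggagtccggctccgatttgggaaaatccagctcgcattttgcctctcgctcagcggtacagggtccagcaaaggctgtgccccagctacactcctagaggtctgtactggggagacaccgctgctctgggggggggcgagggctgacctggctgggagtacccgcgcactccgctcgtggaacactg

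Tet2 lies at chr3:133126643-133207354 on the minus strand and had only 5 DHS in its window, the fewest of the 8 genes, but 4 of them were above the median score. The pair at promoter 1, of scores 158 (chr3:133207607-133208711) and 132 (chr3:133205995-133207360), spanned 2.72 kb with a gap of 246 bp just upstream of the TSS. Promoter 2, 55.7 kb downstream and with a coding length of 1919 codons, had its nearest DHS 54360 bp away, and the remaining body had none. The strongest DHS of the window, of score 175 at chr3:133246229-133247131, lay 39.3 kb upstream of the TSS, with no annotated TSS within 1 kb. It formed a cluster of 2.76 kb with DHS of scores 64.6 and 12.4. These 3 DHS had observed/expected CpG ratios of 0.257 to 0.274, near the median of all DHS (0.288). The gap at the promoter had a GC content of 83.7%, and 30.6% of its words of 31 bases had more than a single place in mm9. It consists of a tandem repeat, in which 78.9% of bases were equal to the base 42 bp further on. The bases before the TSS, chr3:133207355-133207604 on the minus strand, nearly all of them in this gap, show the repeated unit.
Tet2 promoter 1: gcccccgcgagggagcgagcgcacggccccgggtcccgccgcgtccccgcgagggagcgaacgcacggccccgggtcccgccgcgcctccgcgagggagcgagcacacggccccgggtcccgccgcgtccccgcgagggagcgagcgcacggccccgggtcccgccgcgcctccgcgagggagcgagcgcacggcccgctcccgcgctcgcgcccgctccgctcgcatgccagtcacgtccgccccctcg

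Tet3, at chr6:83312367-83391672 on the minus strand, had 14 DHS in its window. The DHS on promoter 1 (chr6:83391112-83392193) had a score of 27.8, below the median of the list, although the promoter had a GC content of 64.6%. A stronger DHS, of score 94.2, lay 15.2 kb upstream at chr6:83406332-83407478, with no annotated TSS of any gene within 1 kb. Its GC content of 70.6%, ratio of 0.788 and 112 CpGs met the limits used here for CpG-rich. Of the 30351 DHS with no TSS within 1 kb, 1.35% were CpG-rich, and of the 50 such DHS in the 8 windows, 3 were. These were the upstream DHS of Tet3, the intron DHS of Tet1 that holds the RefSeq start, and 1 in the body of Pomc in the Dnmt3a window. Within the gene, an intron DHS of score 21.6 lay 4.61 kb from the TSS, and promoter 2, 61.8 kb downstream with a coding length of 266 codons, had none. The RefSeq start of Tet3 coincided with GENCODE promoter 1. The centre of the upstream DHS, chr6:83406756-83407055 on the minus strand, is shown as a stretch with the base composition of a promoter and no annotated start, chosen after its values were seen.
Tet3 upstream DHS: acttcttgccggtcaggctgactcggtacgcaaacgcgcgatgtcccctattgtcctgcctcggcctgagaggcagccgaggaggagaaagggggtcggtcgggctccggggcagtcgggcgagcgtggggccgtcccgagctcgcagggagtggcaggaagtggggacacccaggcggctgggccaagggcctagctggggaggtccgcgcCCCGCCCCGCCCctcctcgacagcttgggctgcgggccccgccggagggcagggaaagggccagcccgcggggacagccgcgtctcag
In this stretch overlapping GC boxes are in capitals, and the whole DHS held 5 separate ones, as did 1.14% of all DHS, 3.75% of those at least as wide and 3.19% of those at promoters.

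The reader gene Mbd2, which binds methylated CpG, had 4 annotated promoters in a body of 57.9 kb. Promoter 1, of the coding transcripts, had DHS of scores 85.7 and 62.2, and the former covered its TSS. They were 359 bp apart, and the gap had a GC content of 80.8%. Promoters 2, 3 and 4, which lack a protein-coding transcript and lie 12.6, 25.1 and 49.6 kb downstream, had none and their nearest DHS were 11125 to 25613 bp away. No DHS lay in the rest of the body. Upstream, 3 intergenic DHS had scores of 11.2 to 13.5. Downstream of the gene, a DHS of score 148 lay 76.1 kb from the TSS between genes, stronger than those of the promoter.

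**Figure D3:**
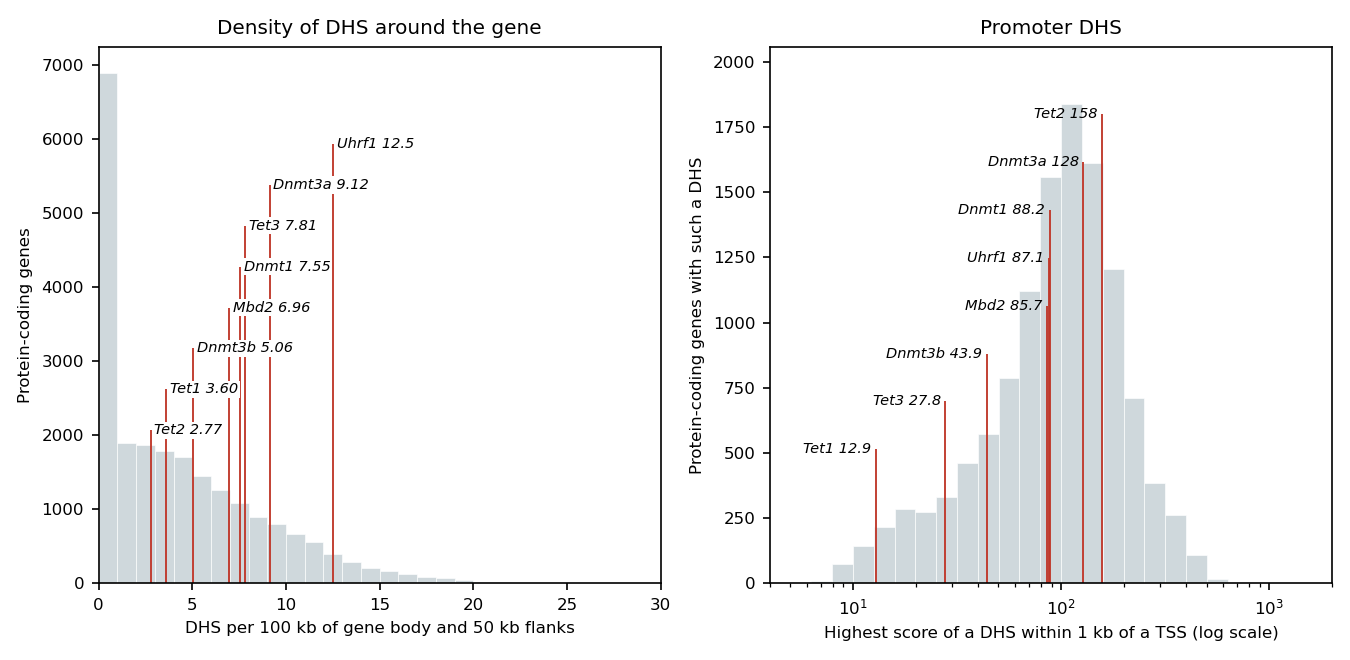
The left panel gives the number of protein-coding genes (y axis) by DHS per 100 kb of gene body and 50 kb flanks (x axis), and the right panel gives the number of genes with a promoter DHS by its highest score (log x axis). Red lines mark the 8 genes with their values, and 5 genes above 30 DHS per 100 kb are not drawn on the left. With 50 kb flanks Uhrf1 and Dnmt3a stand highest on the left and Tet2 lowest, while with 10 kb flanks Dnmt3a is highest and Tet1 lowest. Tet2 stands highest on the right.

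The density of DHS around a gene and the highest score of a DHS at its promoters thus gave different orders. Per 100 kb of window, Uhrf1 had 12.5 DHS (95% interval 6.99 to 20.6), Dnmt3a 9.12, Tet3 7.81, Dnmt1 7.55, Mbd2 6.96, Dnmt3b 5.06, Tet1 3.60 and Tet2 2.77 (0.898 to 6.46). The intervals of Uhrf1 and Tet2 did not overlap, and neighbours in this order overlapped in each case. The order depended on the flank, and with 10 kb on either side Dnmt3a (8.56) stood above Uhrf1 (7.47), and Tet1 (1.75) stood below Tet2 (1.99). It also depended on the score, and counting DHS at or above the median score, Dnmt3b (1.45) and Tet1 (2.06) stood below Tet2 (2.21), and Dnmt3a (4.80) stood beside Dnmt1 (4.81). The density was above the median of protein-coding genes for 7 of the 8, and below it for Tet2 (the 44.7 percentile). Uhrf1 stood at the 94.2 percentile, and of its 15 DHS 1 was its own and 8 lay at promoters of other genes. Fem1a, Ticam1, Plin3 and Kdm4b had promoter DHS there, with 473 at Fem1a and 303 at Plin3 as the highest scores.

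Other neighbours with a DHS within 1 kb of a TSS were Mrpl4, S1pr2, Eif3g, Ppan with SNORD105, Angptl6 and A230050P20Rik around Dnmt1, Dtnb upstream of Dnmt3a, and Commd7 upstream of Dnmt3b (148). Around Tet1 they were Dna2, Slc25a16 with 7SK (97.7) and Ccar1, and around Tet3 they were Bola3, Mob1a and Mthfd2 (272), a mitochondrial enzyme of folate metabolism. Poli, a translesion polymerase upstream of Mbd2, had a DHS of score 171. Some promoter DHS of the 8 genes were also within 1 kb of a TSS of another annotated gene, namely 7530422B04Rik at Dnmt3b, B230319C09Rik at Tet3, AC159324.1 at the strong DHS of Dnmt3a and Gm10485 at the weak DHS of its promoter 4. The DHS cannot be assigned to either gene of such a pair from the list alone. No other gene had a promoter DHS in the window of Tet2, where all 5 DHS were either its own or intergenic.

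In 4 of the 8 genes, Dnmt3a, Dnmt3b, Tet2 and Mbd2, at least 1 promoter had DHS less than 2 kb apart. This was so for 32.6% of the 11991 protein-coding genes with a promoter DHS, and 8 genes are too few to set apart from that share. TSSs fell in the gaps at Dnmt3a and Dnmt3b, whereas no TSS lay in the gaps at Tet2 and Mbd2. The 5 gaps were 179 to 1369 bp long and had a GC content of 68.7 to 83.7%. In all 5 the GC content was higher than in the DHS on either side, which had 47.9 to 66.6%. Over all 4051 such gaps the median GC content was 66.7%, that of the flanking DHS was 54.8%, and 68.6% of gaps were above both. The gap of Tet2 was the only one of the 5 with words of 31 bases that recur in mm9. Very GC-rich fragments are recovered less well in amplified libraries, and whether this moved the calls in these gaps was not tested, because the list holds no coverage.

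**Figure D4:**
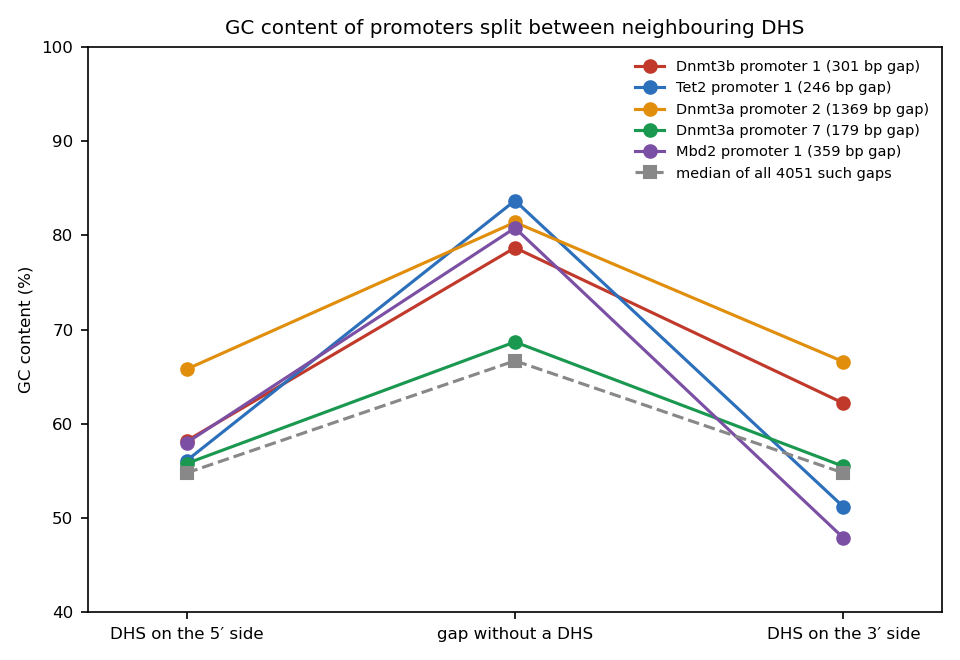
GC content in percent (y axis) of the 5 gaps between neighbouring promoter DHS of Dnmt3a, Dnmt3b, Tet2 and Mbd2 and of the DHS on their 5′ and 3′ sides. The dashed grey line joins the medians over all 4051 such gaps and their flanking DHS, and each of the 5 gaps lies above both of its DHS.

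Words for lymphoid factors were searched over the full width of the 89 DHS and in their central 300 bp. Over the full width, the PU.1 word GAGGAAGT occurred in 8.99% of them and in 8.90% of all DHS, the composite Ets-IRF word GAANNGAAA in 24.7% and 24.3%, and the octamer ATGCAAAT in 4.49% and 4.70%. The EBF word occurred in 14.6%, against 17.7%, and the Runx word TGTGGTT in 23.6%, against 18.3%. In the centre the values were 5.62% against 3.61% for PU.1, 8.99% against 9.36% for Ets-IRF, 1.1% against 1.63% for the octamer, 4.49% against 6.64% for EBF and 6.74% against 6.81% for Runx. Over the full width the share of all DHS lay within the 95% interval for each of these words. The intervals were 3.96 to 16.9 for PU.1, 16.2 to 35.0 for Ets-IRF, 1.24 to 11.1 for the octamer, 8.01 to 23.7 for EBF and 15.2 to 33.8 for Runx. Ets-IRF and Runx were above the share of all DHS over the full width and below it in the centre, while the others kept their side. No interval was computed for the centre. Over the full width the CTCF element, searched with at most 1 mismatch, was in 14.6%, against 12% of all DHS. The NRF1 word was in 7.87% (95% interval 3.22 to 15.5), against 3.15%, and the NF-Y word in 10.1% (4.73 to 18.3), against 3.99%. In the central 300 bp they were in 5.62%, against 1.27%, and in 4.49%, against 1.37%. In stretches of the same length at all annotated promoters, from 250 bp before to 50 bp after the TSS, the shares were 2.2% and 3.16%. For the other words of the 14 searched, the interval over the full width held the share of all DHS. Among these, the GC box was in 29.2%, against 23.7%, the E-box in 21.3%, against 16.2%, and the E2F word in 14.6%, against 11.8%. No allowance was made for the number of words searched, and the shares were not compared with those of DHS at promoters. Of the 9 DHS with an NF-Y word, that of Uhrf1 was the only one at a promoter or in an intron of the 8 genes. All words were searched on both strands, and a match is not evidence that the factor was bound.

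The wider pathway was described from a list of 34 other genes of DNA methylation, of which 31 had a DHS within 1 kb of a TSS (91.2%, 95% interval 76.3 to 98.1), against 53.7% of all protein-coding genes. All 6 cofactors and homologues of the methyltransferases had one, with scores from 49.8 at Dnmt3l to 368 at Pcna, the sliding clamp of replication. So did all 9 genes of the methyl-CpG-binding domain and zinc finger reader families on the list, not all of whose products bind methylated CpG, among them Zbtb4 (198), and all 6 genes that supply the methyl donor or 2-oxoglutarate, among them Mat2a (362) and Idh1 (291). Of 10 genes for the removal of modified bases, 8 had one, including the thymine glycosylase gene Tdg (209). The uracil glycosylase gene Smug1 and Apobec2 had none. Of the 3 partners of the Tet proteins, Ogt, with a score of 49, and Cxxc5, with 120, had one, and Cxxc4 had none.

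As a measure of repeated sequence, each DHS was cut into words of 31 bases, and those with more than a single place in mm9 were counted. Their median share was 0% over the 89 DHS, and 13 of them were above 10%, the highest being a DHS at the promoter of Fem1a (44.7%). Among the 23 DHS at promoters and in introns of the 8 genes 9 had such words, and the highest share was 13.9%, in an intron of Dnmt3a.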

How the data were processed

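DNaseI sequencing was carried out on B220-selected splenic B cells. Per the methods of the study, nuclei were digested with increasing amounts of DNase I, digests were selected by qPCR for their signal over background, and short fragments were sequenced. The submitters' processing notes name BWA 0.6.2, SAMtools and mm9. Peak names show the MACS caller; its version and settings for this library are not given in the sources used here. The deposited file gives each peak a start, an end and a score made by the authors with the caller, without read counts.

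Starts were counted from 1. Overlaps, shares, exact intervals (Poisson or binomial, 95%) and sequence measures were computed with Python 3.11.15, numpy 2.4.6 and scipy 1.17.1 on the mm9 genome and GENCODE M1. A DHS belonged to a promoter when it came within 1000 bp of a TSS. Overlap and word counting were tested on simulated data. RefSeq promoters (12 entries for 7 genes; Mbd2 had no entry in that table) were placed by exact match of their sequence. For each gene the promoters, the strongest DHS in the window and the strongest inside the body were named, and neighbours where a DHS lay at their TSS. The members and lists were chosen with earlier results of these data known. The comparison of gaps between DHS, the RefSeq match, the copies of a word in a DHS and the comparison with genes of 50 to 200 kb were added after the first tables were seen. Alternatives changed the flank, the promoter definition, the score and the merging of DHS. The input library was not used here, and a few genes of the lists are not reported here by name.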

Additional observations from a re-analysis of the deposited data

How the results depend on the processing

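The count of 89 DHS and the density of 6.72 per 100 kb depended on the window and on the score. With flanks of 10 kb there were 31 DHS and 4.53 per 100 kb, and with DHS at or above the median score there were 53 and 4.0. Merging DHS closer than 500 bp left 68, or 5.13 per 100 kb. Flanks of 100 kb (122 DHS) and the centre rule (87) stayed within 1.5 times. Fewer DHS enter by construction in the score and merging alternatives. Single genes moved by over 1.5 times as follows. With flanks of 10 kb the density fell to 7.47 at Uhrf1, 1.75 at Tet1, 4.03 at Tet3 and 2.57 at Mbd2, and with 100 kb to 1.78 at Tet2. At or above the median score it fell to 4.81 at Dnmt1, 4.80 at Dnmt3a, 1.45 at Dnmt3b, 2.06 at Tet1, 3.90 at Tet3 and 4.43 at Mbd2, and after merging to 1.66 at Tet2 and 4.43 at Mbd2. Against 12 of 32 promoters with a DHS as reported, there were 9 of 32 with a covered TSS and 9 of 32 at the median score, 16 of 32 in the window of 5 kb upstream to 2 kb downstream, 16 of 36 with TSSs joined at 100 bp, 10 of 28 at 2000 bp, and 11 of 21 with protein-coding transcripts only. The number of genes with one ranged from 6 to 8. The lowest was with DHS at or above the median score, where Tet1 and Tet3 dropped out and the share over all protein-coding genes fell to 47.4%. The pathway count was 28 with a covered TSS and 31 at the median score. With the central 300 bp of each DHS, 8 of 14 words, in place of 12, were more frequent in the 89 DHS than in all DHS. A single library leaves no replicate to omit, and no paired analysis was possible because there is 1 DNaseI library. The unknown depth limits every statement that a promoter had no DHS.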
